A study of Drosophila melanogaster with 2 samples.

Results

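The mitochondrial ribosomal protein genes of Drosophila melanogaster are taken here as the 73 protein-coding genes, of 13968 in the Ensembl annotation, whose symbol starts with mRpL or mRpS. Small subunit genes with other names, bonsai and tko among them, are not included. The 73 comprise 47 genes of the large subunit and 26 of the small subunit. Binding of the GATA factor GATAd near the transcription start sites (TSSs) of these 73 genes was measured by chromatin immunoprecipitation and sequencing in whole wandering larvae of the third instar, males and females mixed, of a transgenic line with GATAd fused to GFP at its C terminus. All samples form 1 group. It has 2 biological replicates, numbered 2 and 3 in the labels, and control libraries named there were not analysed here. The immunoprecipitation used an antibody to GFP, although the antibody field of the labels names GATAd, and the age of the larvae is not given. The chromatin comes from all larval tissues together, so a peak cannot be assigned to a cell type. A gene was counted as having a peak where the summit lay within 1 kb of one of its TSSs.

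Mitochondrial ribosomes translate the few messenger RNAs of the mitochondrial genome, which encode core subunits of the respiratory chain and of ATP synthase. Their proteins are all encoded in the nucleus, made in the cytoplasm and imported. The small subunit reads the message and the large subunit joins the amino acids. In flies, mutants of the small subunit gene tko develop slowly and are prone to seizures, and growth depends on this ribosome. GATA factors bind the word WGATAR, where W is A or T and R is A or G.

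GATAd peaks were found at 12 of the 73 genes, 7 of the large subunit (mRpL20, mRpL23, mRpL24, mRpL32, mRpL37, mRpL41 and mRpL42) and 5 of the small subunit (mRpS2, mRpS10, mRpS17, mRpS23 and mRpS26). All 12 lay head to head with another gene, and the 13 peaks at them had their summits within 1 kb of a start site of both. The 12 genes are 16.4% of the members (Wilson 95% interval 9.66 to 26.6), beside a background of 8.77% of all protein-coding genes (1225 of 13968). The share was 22.6% among cytoplasmic ribosomal protein genes (21 of 93) and 11.9% among nuclear oxidative phosphorylation genes (10 of 84). A share above the background is thus not particular to the members. Members and genes of their kind were already known to lie near peaks when the list was chosen, so no test of the list was made. The peaks come from the authors' final list, thresholded by IDR (irreproducible discovery rate), which weighs how alike the replicates rank their candidates. The intervals cover the counting of genes only, since read depth is unknown.

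The sequences around 6 of the summits show what these promoters hold. They were chosen as strong peaks without a WGATAR word (mRpS10, mRpL24), peaks with one (mRpS23, mRpS2, mRpS26) and the summit with the promoter word DRE (mRpL32). Each is the plus strand of build dm6 (RefSeq sequence of Release 6), 5′ to 3′, up to 100 bases on each side of the summit and kept between the nearest start sites of the gene pair. Capitals mark WGATAR in either orientation, DRE (TATCGATA) and CAGCTG.
mRpS10, chr3R:15229437-15229637: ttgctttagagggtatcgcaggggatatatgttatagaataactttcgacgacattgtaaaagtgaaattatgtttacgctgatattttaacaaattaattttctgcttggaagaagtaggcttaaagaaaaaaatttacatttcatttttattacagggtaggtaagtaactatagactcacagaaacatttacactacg
mRpS23, chr2L:13835338-13835538: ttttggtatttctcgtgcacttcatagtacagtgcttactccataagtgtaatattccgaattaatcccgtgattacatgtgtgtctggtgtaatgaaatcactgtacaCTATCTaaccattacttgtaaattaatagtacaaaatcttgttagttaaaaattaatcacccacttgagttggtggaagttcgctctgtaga
mRpS2, chr2L:4850503-4850640: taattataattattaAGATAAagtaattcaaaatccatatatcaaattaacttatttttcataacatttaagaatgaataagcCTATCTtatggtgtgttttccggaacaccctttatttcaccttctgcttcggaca
mRpL24, chr2L:4945393-4945578: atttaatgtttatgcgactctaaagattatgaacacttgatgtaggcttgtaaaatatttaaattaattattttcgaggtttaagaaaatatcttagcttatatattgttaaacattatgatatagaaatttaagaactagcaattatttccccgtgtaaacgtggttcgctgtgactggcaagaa
mRpL32, chr3R:31252728-31252871: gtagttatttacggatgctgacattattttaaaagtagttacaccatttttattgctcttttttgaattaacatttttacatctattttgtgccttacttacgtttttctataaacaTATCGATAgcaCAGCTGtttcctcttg
mRpS26, chr3L:18106389-18106578: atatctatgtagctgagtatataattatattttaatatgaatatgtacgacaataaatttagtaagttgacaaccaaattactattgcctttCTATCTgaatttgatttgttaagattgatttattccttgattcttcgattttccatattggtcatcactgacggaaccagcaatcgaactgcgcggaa

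The mRpS23 window holds 1 WGATAR word, read on the minus strand and starting 9 bp to the right of the summit. In the mRpS2 window there are 2 such words, starting 85 and 17 bp to the left. The mRpS10 and mRpL24 windows hold none, although the 4-letter core GATA occurs in them, on either strand, at 3 and 2 places. In the mRpL32 window, DRE and CAGCTG lie close together just before the mRpL32 start site.

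Among the small subunit genes, mRpS10 and mRpS23 had the highest peaks. mRpS10, the relative of bacterial S10, had a signal of 331 in the IDR list, 176 in replicate 2 and 154 in replicate 3 (3R, 15229407 to 15229658). Signal is the authors' enrichment value per peak, on a scale that is not stated, and the lists need not share a scale. The mRpS10 summit lay 128 bp upstream of its TSS and 129 bp upstream of that of Art3, an arginine methyltransferase gene. mRpS23, a subunit with no bacterial relative, had 259 in the IDR list, 138 in replicate 2 and 123 in replicate 3 (2L, 13835354 to 13835554). That summit was nearer to CenG1A, which encodes a GTPase-activating protein of the Arf family of small GTPases, at 126 bp, than to mRpS23 at 366 bp. Both peaks stood within the 25 strongest of each replicate (ranks 12 and 22 in replicate 2, and 9 and 23 in replicate 3).

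The other small subunit peaks were weaker. mRpS2, the relative of bacterial S2, had 113 in the IDR list, 36.1 in replicate 2 and 70.7 in replicate 3 (2L, 4850411 to 4850794), with the summit 184 bp from its TSS and 38 bp from that of Mon1, a gene of late endosome maturation. mRpS26, a mitochondria-specific subunit, had 2 partly overlapping peaks on 3L, 18106092 to 18106475 (46.1) and 18106297 to 18106680 (45.0), in the same 430 bp between its TSS and that of CG13698. In replicate 2 they matched candidates of 27.9 and 18.9, and in replicate 3 both matched the same candidate of 25.2. mRpS17, the relative of bacterial S17, had 44.4 in the IDR list, 20.02 in replicate 2 and 24.5 in replicate 3 (2R, 24174434 to 24174817), between its TSS and that of Nop60B, which encodes the pseudouridine synthase of ribosomal RNA. The mRpS26 and mRpS17 peaks stood close to the end of the IDR list, whose lowest signal was 43.9.

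Among the large subunit genes, mRpL41 and mRpL23 led. mRpL41, a mitochondria-specific subunit, had 344 in the IDR list, 185 in replicate 2 and 162 in replicate 3 (2R, 15217621 to 15217889), and ranked 8 in all 3. Its summit lay 127 bp upstream of mRpL41 and 635 bp from CG8079. mRpL23, whose bacterial relative sits at the exit of the peptide tunnel, had 249, 121 and 125 in the same lists (3L, 2373473 to 2373674). The mRpL23 summit lay in the gene's 5′ UTR, 63 bp downstream of the nearest of its 3 start sites, and 113 bp from CG9004.

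mRpL24, relative of bacterial L24, had 109 in the IDR list, 44.8 in replicate 2 and 63.8 in replicate 3 (2L, 4945301 to 4945684). Its summit was 132 bp from its TSS and 86 bp from that of betaggt-I, the beta subunit of a protein prenyltransferase. mRpL42, a mitochondria-specific subunit, had 77.6, 49.5 and 31.6 (2R, 10066470 to 10066853), with the summit 12 bp inside its 5′ UTR and 148 bp from PIG-N, a gene of GPI anchor synthesis. mRpL20, relative of bacterial L20, had 65.6 in the IDR list and 47.5 in replicate 3 (3L, 13017891 to 13018274), with no overlapping candidate in replicate 2. It shares its peak with Icmt, which encodes the methyltransferase of prenylated proteins. These peaks stood apart from the leading ones by the signal in every list that held them.

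The remaining large subunit peaks were those of mRpL37 and mRpL32. mRpL37, a mitochondria-specific subunit, had 64.7 in the IDR list, 17.0 in replicate 2 and 43.6 in replicate 3. mRpL32, whose mouse and yeast relatives are cut to their mature form by a mitochondrial protease, had 62.8, 37.5 and 20.4 (3R, 31252636 to 31253019). Its neighbour qless encodes a mitochondrial enzyme that builds the side chain of coenzyme Q. By the number in the name, 7 of the 12 genes fall in the range counted as bacterial and 5 do not, beside 42 and 31 of all members. That range ends at 36 in the large subunit and at 21 in the small. A number above it does not by itself show that a bacterial relative is lacking. A peak was found at 3 of 12 members on 2L, 3 of 12 on 2R, 3 of 17 on 3L and 3 of 21 on 3R. On X a peak was found at 0 of 11 members (upper Wilson limit 25.9%), beside 8.79% of all genes there. A difference could not be seen there with so few genes.

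**Figure D1:**
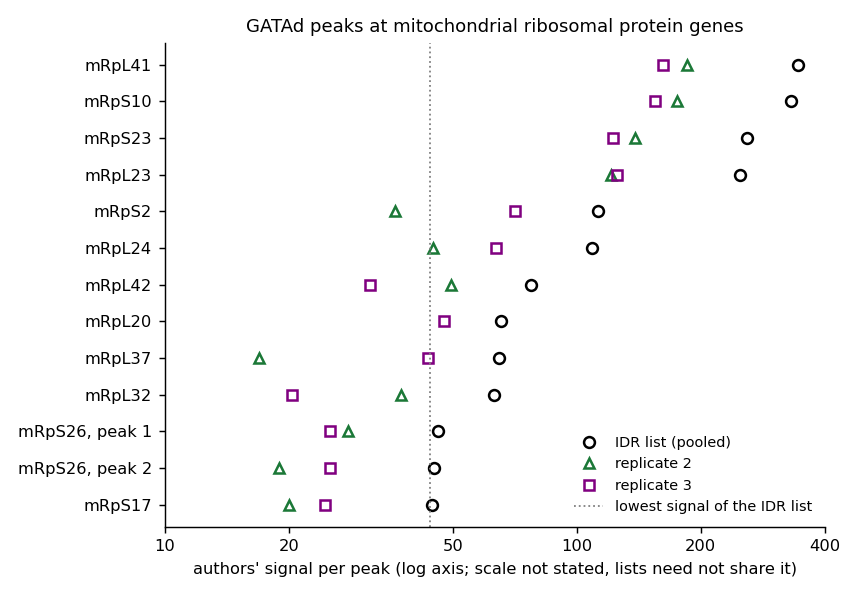
Signal per peak (log axis) at the 13 peaks of the 12 genes in the IDR list (circles), replicate 2 (triangles) and replicate 3 (squares), with the lowest signal of the IDR list as a dotted line. The 4 leading peaks lie at 249 and above in the IDR list and at 121 and above in both replicates, and mRpL20 has no triangle because replicate 2 had no candidate there.

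Of the 4 strongest peaks, 3 had nearly the same relative signal in both replicates, and the others ranged more widely. For mRpL41, mRpS10 and mRpS23 the log2 ratio of replicate 3 to replicate 2, taken relative to the median over 1168 IDR peaks, was 0.00, 0.01 and 0.02, and for mRpL23 it was 0.25. It was 1.56 for mRpL37 and 1.16 for mRpS2 toward replicate 3, and -0.68 for mRpL32 and -0.45 for mRpL42 toward replicate 2. The first mRpS26 peak, one of the weakest, had 0.05, although the summits of its 2 candidates lay 267 bp apart. Its replicate 3 candidate was also matched to the second mRpS26 peak, which had 0.61, so this candidate enters the median below 2 times. Over the 12 peaks with both values the median was 0.15 and the SD 0.64, beside 0.03 and 0.75 over 811 peaks near any TSS. With the overlapping candidate of highest signal in place of the one with the nearest summit, the members' median was 0.046. No test of these ratios was possible, since each rests on a single library per replicate.

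Of the 13 peaks, 9 overlapped one of the 1205 strongest candidates in each replicate, the number of peaks in the IDR list. That is 69.2%, beside 57.1% of the 841 IDR peaks near a TSS (480) and 62.8% of the 352 at head-to-head pairs. The 9 include both mRpS26 peaks, which rest on the same candidate in each replicate (rank 994 in replicate 2 and 1143 in replicate 3). The replicate 2 candidate nearest to the second mRpS26 peak stood at rank 2974, outside the 1205 strongest. The share went with strength, since 145 of 146 peaks near a TSS among the 200 strongest were in both. Past rank 200, 3 of 7 member peaks were, namely that of mRpL42 and both of mRpS26, beside 48.2% of 695 peaks. The mRpL32 peak was in the top of replicate 2 alone, the mRpL20 and mRpL37 peaks in that of replicate 3 alone, and the mRpS17 peak in neither, with ranks of 2415 and 1212. With an overlap of at least 50% of the peak, or with summits within 100 bp, the count was 7. Being in the IDR list does not by itself show agreement at a single gene, because that list is exactly the 1205 strongest of the 30000 pooled candidates. The summits of both replicates lay a median of 38 bp apart over 12 peaks and 37 bp over 811, and were closest at mRpL37 (7 bp), mRpL23 (8 bp) and mRpS23 (12 bp). The farthest apart were those matched to the first mRpS26 peak, at 267 bp.

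**Figure D2:**
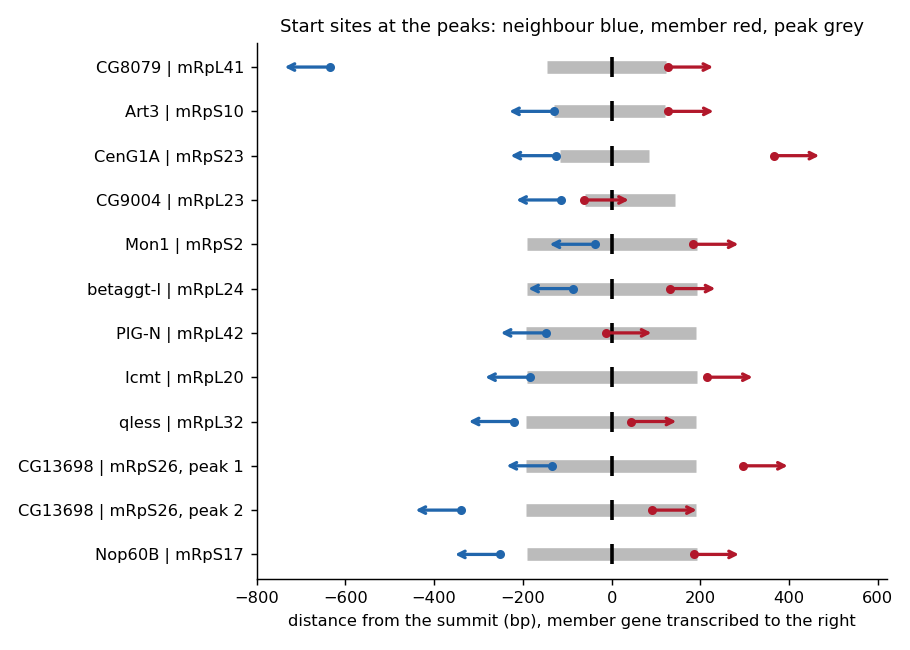
Start sites around each summit (vertical black mark at 0, distances in bp), drawn with the member gene transcribed to the right (red) and the neighbour to the left (blue), and the peak in grey. The plot leaves out the mRpL37 peak and shows the start site of each gene nearest to the summit. Of the 12 summits drawn 10 lie between the 2 start sites, and those of mRpL23 and mRpL42 lie 63 and 12 bp downstream of the member start site.

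Every peak at these genes is shared with a neighbour. Each of the 13 summits had exactly 2 genes within 1 kb, pointing away from each other. Each lay between their nearest start sites or at most 63 bp downstream of that of the member. Among all IDR peaks near a TSS, 352 of 841 (41.9%) lay at such a head-to-head pair, counting summits up to 100 bp outside it. The member TSS was the nearer one for 7 peaks and the neighbour TSS for 6. Which gene of a pair the binding concerns cannot be told apart from peak positions. Where each peak was given only to its nearest gene, mRpL20, mRpL24, mRpL37, mRpS2 and mRpS23 dropped out and 7 genes remained (9.59%), beside 5.72% of all genes.

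Head-to-head arrangement is common in this gene family. A head-to-head partner with its TSS at most 1 kb away was found for 58 of the 73 genes (79.5%, Wilson 95% interval 68.8 to 87.1), beside a background of 36.2% of all protein-coding genes. It was found for 60.2% of 93 cytoplasmic ribosomal protein genes and 51.2% of 84 nuclear oxidative phosphorylation genes. No member had another member as its partner. Among genes with a partner, 12 of 58 members had an IDR peak (20.7%, Wilson 95% interval 12.3 to 32.8), beside a background of 16.8% (848 of 5052). With a partner, the share was 32.1% for cytoplasmic ribosomal protein genes (18 of 56) and 18.6% for oxidative phosphorylation genes (8 of 43). Among genes with none, 0 of 15 members had one (upper Wilson limit 20.4%), beside 4.23% (377 of 8916). Within each arrangement the background lay inside the interval of the members' share, whereas over both it was 16.4% beside 8.77%. This depends on the distance allowed between partners, which was varied after seeing the data. With start sites at most 250 bp apart, 4 of 25 members with a partner had a peak (16.0%), beside 18.0% of all such genes. Of the 48 members without so close a partner, 8 had one (16.7%, Wilson 95% interval 8.70 to 29.6), beside 7.25%, which lies below that interval. A peak between 2 genes counts for both, in the background as well.

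**Figure D3:**
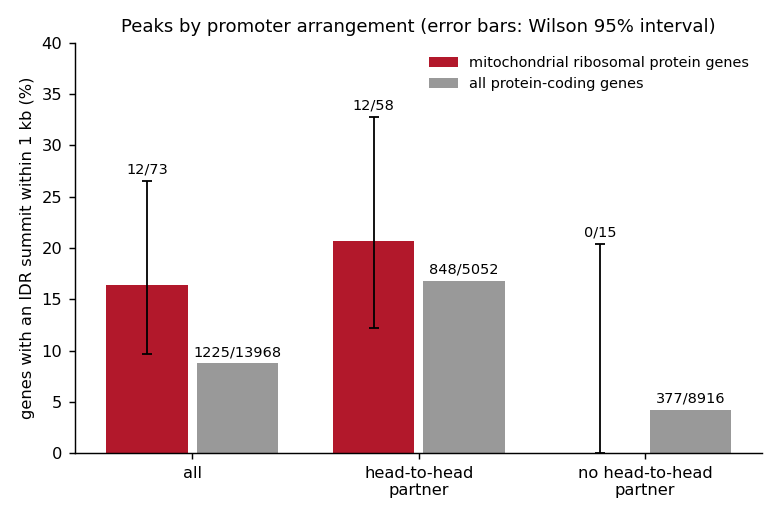
Percentage of the members that had an IDR summit no more than 1 kb from a start site (red, error bars are Wilson 95% intervals) and the same for all protein-coding genes (grey), for all genes and split by whether a head-to-head partner lies within 1 kb. The background of 16.8% with a partner and 4.23% without one lies inside the members' interval in both cases.

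Members with and without a peak had their partners at like distances. The gap between the start sites had a median of 277.5 bp (24 to 762) at the 12 genes with a peak and 283 bp (20 to 793) at the 46 others with a partner, and 298 bp over all 5052 genes. The gap is the smallest between any annotated start sites of the pair. The other 46 include mRpL18, 20 bp from Taz, and mRpS21, 297 bp from Droj2.

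By strength, the members were reached earlier in the ranked pooled list than protein-coding genes as a whole. Among the 100 strongest pooled candidates 4 members had a summit within 1 kb (5.48%, Wilson interval 2.15 to 13.3), beside a background of 0.859%. Among the 300 strongest 6 did (8.22%, Wilson interval 3.82 to 16.8, background 2.47%). Among the 1000 strongest there were 10 (13.7%, background 7.58%), among 3000 there were 22 (30.1%, background 15.4%) and among 10000 there were 28 (38.4%, background 27.3%). In the full list of 30000 candidates, which includes background by design, 31 members had one (42.5%), beside 46.3%. The members lay above the background at the top of the list and just below it at the end. Other genes listed for mitochondrial gene expression, described below, came close at the top. They had 5% at 100 candidates, 7.5% at 300, 10% at 1000 and 15% at 3000. Cytoplasmic ribosomal protein genes had 0% at 100 and 7.53% at 300, but stood above the members at 1000 (18.3%) and 3000 (36.6%). Oxidative phosphorylation genes had 0% at 100 and 300, 10.7% at 1000 and 16.7% at 3000. The median signal of the 13 peaks was 77.6, beside 67.6 (quartiles 53.0 and 90.5) for the 841 peaks near a TSS.

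**Figure D4:**
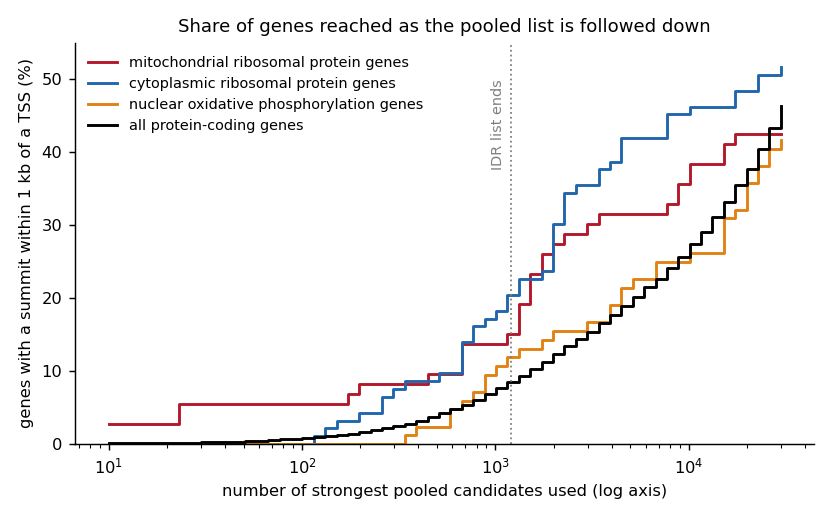
Share of genes with a summit within 1 kb of a TSS (%) as more of the strongest pooled candidates are used (log axis), for the members (red), cytoplasmic ribosomal protein genes (blue), nuclear oxidative phosphorylation genes (orange) and all protein-coding genes (black). The red line stands at 5.48% by 100 candidates, where the black one is at 0.859%, and at 42.5% at the end, where the black one is at 46.3%.

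The other 61 members split into 19 with a pooled candidate and 42 with none. The 6 best of the 19 lay just below the IDR list. mRpL21, relative of bacterial L21, and mRpS22, a mitochondria-specific subunit, both had 43.4 (ranks 1226 and 1227), against 44.4 for mRpS17 and 45.0 for the second mRpS26 peak just inside. mRpL18 had 40.6, mRpS6 39.7, mRpS21 38.9 and mRpL4 37.0. All 4 are relatives of bacterial proteins. Each of the 6 candidates also lay within 1 kb of a head-to-head partner, namely rept, CG5003, Taz, Cip4, Droj2 and CG4440. With 2 times as many pooled peaks as the IDR list holds, 21 members had a summit (28.8%), beside 13.9% of all genes.

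**Figure D5:**
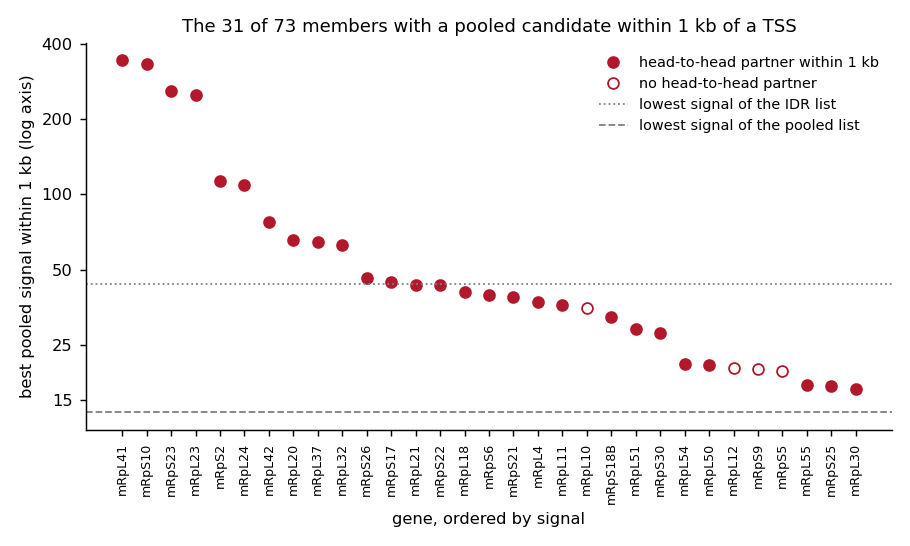
Highest pooled signal within 1 kb of a TSS (log axis) for the 31 members that had a candidate, ordered by signal, with filled points for genes that have a head-to-head partner. The 12 genes above the dotted line at 43.9 are those with an IDR peak, and the line is crossed without a gap, since mRpS17 stands at 44.4 and mRpL21 at 43.4.

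The replicates taken singly gave a like number of genes but not all the same ones. The 1205 strongest candidates of replicate 2 reached 11 members (15.1%), beside a background of 7.97%, and those of replicate 3 reached 12 (16.4%), beside 9.34%. Of these, 9 and 10 were among the 12 of the IDR list. mRpL21 (33.7) and mRpL43 (26.8) were added by replicate 2, and mRpL17 (37.3) and mRpL27 (28.3) by replicate 3. mRpL17 and mRpL27 had no candidate within 1 kb in replicate 2 or in the pool. mRpL21 and mRpL43 had weaker candidates in replicate 3, of 9.95 and 16.3.

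Over the full candidate lists, replicate 2 reached 35 members (47.9%), beside 44.6% of all genes, and replicate 3 reached 53 (72.6%), beside 53.9%. Candidate lists include weak peaks and background, so these counts do not stand for binding. For 16 members, among them mRpL13, mRpL22, mRpL44, mRpS14 and mRpS33, none of the 3 candidate lists had a summit within 1 kb. The same count over all genes was not made, so 16 of 73 cannot be called few or many. A candidate below the end of a list cannot be seen, and the lists ended at 9.56 in replicate 2 and 6.42 in replicate 3.

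The share of these summits with a GATA word nearby depended on the window. WGATAR lay within 100 bp of 4 of the 13 (30.8%, Wilson 95% interval 12.7 to 57.6), at mRpL41, mRpS23, mRpS2 and the second mRpS26 peak, beside 40.9% of the 841 IDR peaks near a TSS and 37.2% of the 352 at head-to-head pairs. Within 200 bp it lay at 8 of 13 (61.5%), beside 61.0% and 60.5%. DRE, the core promoter word printed above in mRpL32, lay within 100 bp of 1 of 13 (7.69%), beside 8.09% and 11.4%. GAGAG was at 1, beside 23.8% and 13.4%, and CCWGG, a word with no role here that served as a control, was at 1, beside 12.1% and 12.5%. The summit windows were rich in A and T, with a median GC content of 30.3%, beside 35.8% for peaks near a TSS and 34.3% for those at head-to-head pairs. In 300 bp from 250 before to 50 after the TSS, WGATAR was in 5 of 12 promoters with a peak (41.7%) and in 33 of 61 without (54.1%), and in 46.7% of all promoters.

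CAGCTG, a palindromic E-box, was frequent in the promoters of the family whether or not GATAd had a peak. In the same 300 bp it was in 40 of 73 member promoters (54.8%), beside 17.6% of all promoters of that length. It was in 7 of the 12 with an IDR peak (58.3%) and in 33 of the 61 without (54.1%). Its share was 22.0% among all genes with a head-to-head partner, 9.68% among cytoplasmic ribosomal protein genes and 23.8% among oxidative phosphorylation genes. It was 27.1% among all genes with an IDR peak. Among 40 other genes listed for mitochondrial gene expression, described below, it was 47.5%, so the word is not particular to this family. Palindromes of the same letters were added for comparison after the members' share was seen. They were in fewer member promoters, with CTGCAG in 4.11%, GTCGAC in 1.37% and GACGTC in 1.37%, beside 6.78%, 4.18% and 3.60% of all promoters.

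The E-box lay at the start site rather than at the summit. Of 45 copies in member promoters, 39 had their centre between 100 bp before and 50 bp after the TSS, with a median of 4.5 bp after it. In the 12 genes with a peak, the 10 copies lay 30.5 to 203.5 bp from the nearest IDR summit, with a median of 130.5 bp. Not all of these were close to the TSS. At mRpL24, mRpL32, mRpL42 and mRpS2 a copy lay at -234.5, -245.5, -128.5 and -242.5 bp from it. Only 2 of the 13 summits had CAGCTG within 100 bp (15.4%), beside 126 of 841 peaks near a TSS. Presence of these letters is a description of the sequence and does not show that a factor binds there.

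Among 40 other genes listed for mitochondrial gene expression, 5 had an IDR peak (12.5%, Wilson 95% interval 5.46 to 26.1), and the background of 8.77% lies inside that interval. All 5 peaks lay at head-to-head pairs, and among listed genes with a partner the share was 5 of 23 (21.7%), beside 16.8%. PNPase, the mitochondrial RNA-degrading polynucleotide phosphorylase, had 289 in the IDR list, 174 in replicate 2 and 111 in replicate 3, shared with Gprk2. SLIRP2, an RNA-binding protein gene, had 172, 90.3 and 79.9, shared with Mkk4. ArgRS-m and LeuRS-m, the mitochondrial synthetases for arginine and leucine transfer RNA, had 55.4 and 46.3 in the IDR list and were in the top of replicate 2 alone. Mppe, a metallophosphoesterase gene that was put on the list but is known from photoreceptors rather than mitochondria, had 139. bonsai and tko, which encode further small subunit proteins under other names, had none. In this list CAGCTG was in 19 of 40 promoters (47.5%), beside 17.6% of all promoters.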

How the data were processed

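Chromatin immunoprecipitation and sequencing was run on larvae that carry GATAd-GFP, with an antibody to the tag per the labels' description. The deposited files are peak lists. Per the deposited file records, candidates were called for replicate 2, for replicate 3 and for their pool, each with 1 further file that all 3 share and that is taken to be the control, and an optimal IDR list was derived from these. The deposited signal (column 7) is the authors' enrichment per peak, on a scale that is not stated, and was used to rank and describe peaks within a list and in ratios between replicates. An aligner, a peak caller, versions of either and the cut-off of IDR were not given in the sources used here, and read depth is unknown. The dm3 lists and the control libraries were not used here. Peaks of 1 list can share reads with those of another, since pool and IDR list come from the same 2 libraries.

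Summits (start plus column 10) were joined to every TSS of protein-coding transcripts in Ensembl release 115 on the dm6 arms. A head-to-head partner is another gene on the other strand, transcribed away, whose TSS is at most 1 kb off. Replicate values are those of the overlapping candidate with the nearest summit (at least 1 bp). Words were searched on both strands, and summit windows had 100 bp on each side. Shares carry Wilson 95% intervals, and no test was made, because there is 1 group and the members and lists were chosen with earlier results of these data known. Joins and searches were tested on simulated data. Genes named are every member with an IDR peak, the 6 best others, their neighbours and listed genes with a peak, except 1 gene that is not reported here. Members called in 1 replicate alone, 5 of the members with no candidate, bonsai and tko are named beside their counts and were chosen after their values were seen. Of 52 symbols listed for mitochondrial gene expression, 12 did not match the annotation. Python 3.11.15, numpy 2.4.6, pandas 2.3.3 and scipy 1.17.1 were used.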

Additional observations from a re-analysis of the deposited data

How the results depend on the processing

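Of 56 alternative values 36 stayed within 1.5 times the main count (or within the spread of the replicates). Counts and signals cannot change sign. Only the log2 ratio between the replicates could, and it was 0.15 and 0.046. Among the members, 11 or 12 genes had a peak at shorter distance limits, with 1 TSS per gene, with overlap in place of the summit, or from the top of either replicate. Within 5 kb there were 22 genes and 27 peaks, with the nearest gene only 7 genes, and with 2 or 3 times as many pooled peaks 21 and 23. The matching counts over all genes were 2377 within 5 kb, 799 with the nearest gene only, and 1937 and 2383 with the longer lists, while the stronger 50% of the IDR list gave 689 genes and 8 members. The mitochondrial gene expression list had 10 genes within 5 kb and 3 with the nearest gene only or the stronger 50%. The median signal of 77.6 was 41.2 and 47.5 in the lists of replicates 2 and 3. Windows of 200 bp around the summit held WGATAR at 8 peaks and DRE at 2 (15.4%, peaks near a TSS 13.4%). Pooled candidates within 5 kb reached 48 members (65.8%), beside 80.3% of all genes. With start sites at most 250 bp apart, 25 members had a partner and 4 of them a peak (16.0%, all such genes 18.0%), while 8 of 48 others had one (16.7%, all such genes 7.25%). The longer lists and the distance between partners were chosen after seeing the data. Unknown depth limits every statement on a weak or missing peak.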
